A study of Mus musculus with 17 samples.

Results

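Arteriolar smooth muscle cells (aSMCs) sorted from SMACreER:Ai47 mice, 6 libraries, were set against astrocytes sorted from hGFAPCreER:Ai14 mice, 3 libraries. Together these are 9 of the 17 bulk RNA-seq libraries of a study of how neurons signal to arterioles in the mouse brain. The members were chosen by their labels, replicates 1 to 6 of the aSMCs and replicates 1 to 3 of the astrocytes, with earlier results of these data known. SMACreER is a Cre recombinase under the smooth muscle actin promoter that tamoxifen switches on, and Ai47 is a reporter allele that gives Cre-positive cells EGFP. The cells came from vessels of adult brains, tamoxifen had been given about a month earlier, and CD31-positive endothelial cells and CD45-positive immune cells were gated out. hGFAPCreER is the same kind of Cre under a human GFAP promoter, and Ai14 gives tdTomato. The tdTomato-positive cells were sorted from cerebral cortex, and their age, tamoxifen schedule and any negative gate were not found in the labels or methods. The other 8 libraries are 2 of aSMCs from SMACreER:Ai14 mice (Ai14 aSMCs) and 6 of wild-type cortex, and they enter the fit so that all groups share an estimate of the spread. Cell type, reporter, fluorophore, sequencing depth and sequencing round all differ between the aSMCs and the astrocytes, so their parts in a difference cannot be told apart.

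Smooth muscle cells wrap arterioles and set their diameter: calcium activates myosin light chain kinase, myosin pulls on smooth muscle actin, and cyclic GMP and potassium channels relax the cell. Astrocytes cover the same vessels with endfeet, where water and potassium channels sit, and they take up glutamate, supply lactate and release arachidonic acid products, potassium and ATP that act on the muscle. The pair is therefore a sender and a receiver on either side of a basement membrane, and the comparison asks which parts of that exchange each population transcribed.

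Depth and agreement between libraries differed by group. The aSMC libraries held 41499087 to 53643624 counts each and the astrocyte libraries 4537137 to 7390630, and mitochondrial transcripts took 0.214 to 0.559% of counts in aSMCs and 10.7 to 12.5% in astrocytes. Across genes with a mean of at least 10 counts in the group, the log2 counts of 2 aSMC libraries correlated with r of 0.75 to 0.81 and those of 2 astrocyte libraries with r of 0.332 to 0.347, and many astrocyte levels below rest on 1 or 2 libraries. In contrast, 70 of the 7220 genes with a mean of at least 100 counts in aSMCs had raw counts in all 6 columns within 5% of each other, against 1 of 6394 genes over the 3 astrocyte columns. The labels do not say whether the 6 or the 3 came from separate animals. The study counts its sorted aSMCs by mice, 6 in all. One legend names the Ai14 line, while the methods and another legend panel name the Ai47 line. The columns are not described one by one. A p-value therefore reflects the spread among the 17 libraries of the fit only, cortex and Ai14 aSMCs included, and part of that spread may be technical. In bulk samples, fewer cells of a type and less RNA per cell cannot be told apart.

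Levels are CPM, counts scaled to the size of each library after TMM scaling, which rests on the assumption that most genes have the same level in each library. In what follows, aSMC values are the lowest, median and highest of the 6 libraries and astrocyte values are replicates 1, 2 and 3 in order. A fold change is the fitted log2 ratio of aSMCs to astrocytes with its standard error (SE), positive where aSMCs were higher, and a gene was called at an adjusted p under 0.05 (edgeR quasi-likelihood test, Benjamini-Hochberg over all 14927 genes tested). By this test 3893 genes (26.1%) were higher in aSMCs and 3555 (23.8%) higher in astrocytes, and these 2 shares are the background for every count of list members below. The choice of scaling bears on the results, since the TMM factors were 0.423 to 0.551 in the aSMC libraries and 1.52 to 2.68 in the astrocyte libraries. The 10 genes with the most counts took 24.9 to 26.2% of counts in aSMCs and 22.2 to 28.4% in astrocytes. Actb, cytoplasmic beta-actin, stood at 117606, 140211 and 172276 CPM in aSMCs and 911, 1228 and 834 CPM in astrocytes. On library totals alone, without TMM, the median of all fold changes moved by -2.11 (log2), and the called genes (54.8% in all) became 1830 higher in aSMCs (12.3%) and 6351 higher in astrocytes (42.5%). A gene called higher in aSMCs whose call is lost on library totals is therefore given with its value or adjusted p there. In every fit that left out 1 library, the median of all log2 fold changes also rose, by 0.335 to 1.17. A call gained or lost in such a fit therefore cannot be tied to the omitted library alone.

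Acta2, smooth muscle alpha-actin and the gene whose promoter drives the aSMC reporter (GRCm38 chr19:34241090-34255590, minus strand), had 2464, 3059 and 4459.6 CPM in aSMCs and 33.3, 83.1 and 74.5 CPM in astrocytes. All 6 aSMC libraries lay above all 3 astrocyte libraries (log2 fold change 5.68, SE 0.66, adjusted p = 1.2e-06), and an exact two-sided permutation test over the 84 ways to choose 3 of the 9 libraries gave p = 0.02381 for its log2(CPM + 0.5), the smallest p this design allows. Aldh1l1, a folate enzyme used as a marker of astrocytes (chr6:90486427-90600203, plus strand), did not separate the groups. It had 1.89, 2.11 and 8.33 CPM in aSMCs and 0, 58.4 and 0.455 CPM in astrocytes, so that only astrocyte replicate 2 stood above the aSMCs and the groups overlapped (log2 fold change -2.59, SE 1.35, adjusted p = 0.12; exact permutation p = 0.9286). Without that library the sign turned (log2 fold change 4.02, adjusted p = 0.056). Other astrocyte genes divided: of 20 list members tested, 13 were higher in astrocytes and 3 in aSMCs, namely Sox9, Gja1 and Gjb6. Of the 13, Gfap, an intermediate filament, had 97, 25.2 and 159.8 CPM in the astrocyte libraries and Aqp4, the endfoot water channel, 564, 506 and 459.7 CPM. Both were at most 3.57 CPM in any aSMC library. All 10 ependymal and choroid genes tested were also higher in the astrocyte libraries, as described below, and the part of such cells in these values was not tested.

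**Figure D1:**
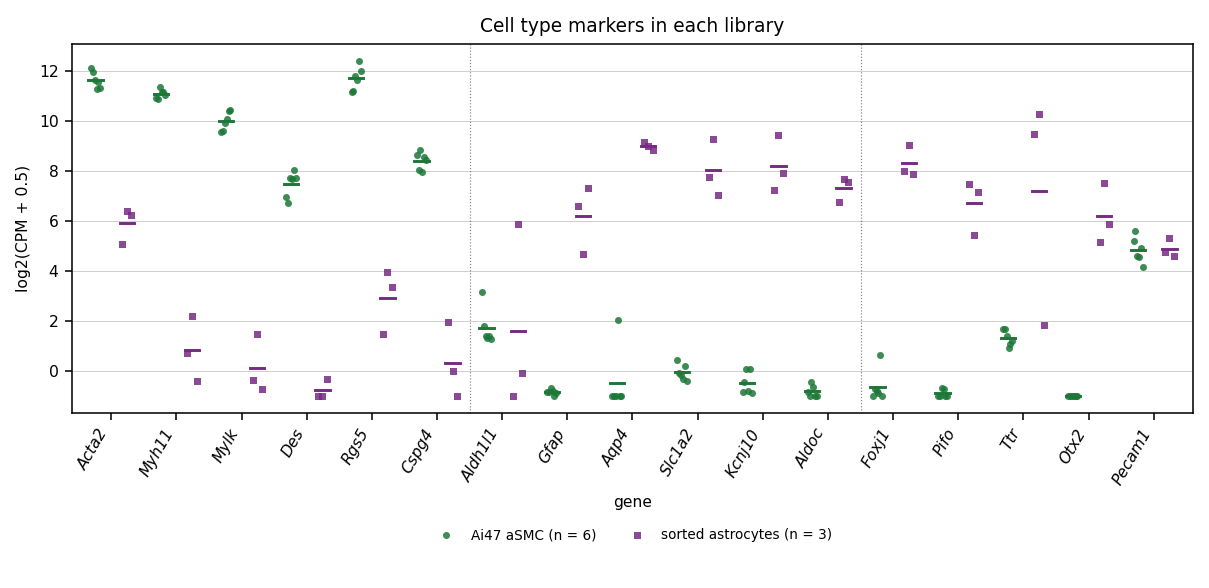
Each point is the level of a marker gene in 1 library, as log2(CPM + 0.5), in 6 Ai47 aSMC libraries (green circles) and 3 sorted astrocyte libraries (purple squares); bars are group means of these log2 values, and dotted lines separate mural, astrocyte and other cell markers. Smooth muscle genes lie high in green, Gfap, Aqp4, Slc1a2, Kcnj10 and Aldoc lie high in purple, Aldh1l1 does not separate the groups, and the ependymal genes Foxj1, Pifo and Otx2 are also high in purple.

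Contractile genes were higher in aSMCs. Of 18 list members tested, 14 were higher in aSMCs and 0 higher in astrocytes (on library totals alone, 11 and 2), with a median log2 fold change of 6.39 against 0.22 over all genes tested. Tpm1, a tropomyosin that lies along the actin filament, had 3366, 4304 and 7379 CPM in aSMCs and 23.3, 2.54 and 24.1 CPM in astrocytes (log2 fold change 8.14, SE 0.74, adjusted p = 4.2e-08). Myh11, the smooth muscle myosin heavy chain, had 1867, 2192 and 2617 CPM and 1.12, 4.06 and 0.253 CPM (log2 fold change 10.27, SE 1.06, adjusted p = 2.6e-07). Mylk, the kinase that starts contraction, had 752, 1019 and 1365 CPM and 0.281, 2.28 and 0.101 CPM (log2 fold change 10.28, SE 0.99, adjusted p = 1.0e-07). In none of these genes did a library of one group reach the range of the other. Des, the muscle intermediate filament desmin, stood at 104, 207 and 262 CPM in aSMCs against 0, 0 and 0.303 CPM in astrocytes, and Pln, which restrains the calcium pump of the sarcoplasmic reticulum, at 92.8, 167 and 236 CPM against 0.749, 14.7 and 0.101 CPM (log2 fold change 5.02, SE 1.09, adjusted p = 9.0e-04).

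Tagln and Lmod1 stood lower in the Ai47 aSMCs than in the Ai14 aSMCs. Tagln, which encodes the actin-binding protein SM22, had 7.81, 10.9 and 21.9 CPM in Ai47 aSMCs and was called (log2 fold change 6.28, SE 0.94, adjusted p = 2.3e-05), and it had 220.4 and 274 CPM in the 2 Ai14 aSMC libraries. Lmod1, a leiomodin that starts actin filaments, had 8.29, 15.7 and 27.5 CPM against 2 counts in all 3 astrocyte libraries together, a ratio of 304 with an exact 95% counting interval of 84.1 to 2512, and 127 and 143 CPM in Ai14 aSMCs. The members that did not pass were Myl9, Synpo2, Cald1 and Casq2, and in each the groups overlapped. Myl9, a myosin light chain, had 166, 192 and 282 CPM in aSMCs, but astrocyte replicate 1 had 245 CPM where replicates 2 and 3 had 1.4 and 21.7, and Myl9 passed without replicate 1 (log2 fold change 4.44, adjusted p = 6.4e-04). Cald1, caldesmon, had 722, 1048 and 1111 CPM in aSMCs and 416, 812 and 247 CPM in astrocytes (log2 fold change 0.99, adjusted p = 0.076, and -1.04 on library totals alone), and it passed in 7 of the 9 fits that left out 1 library, those without an aSMC library and the one without astrocyte replicate 2 (log2 fold change 1.88, adjusted p = 0.0062). Together the list summed to 11382 to 16327 CPM in aSMCs and 789, 985 and 411 CPM in astrocytes.

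Many contractile genes carry a CArG box, the site of serum response factor. The exact box reads the same way on both strands, so a single search covers either strand. It was searched in the 250 bases before each start in the RefSeq promoter table (GRCm38.p6), where 439 of 27025 genes (1.624%) hold it. It was found for 2 of the 15 contractile genes in the table and 0 of 17 astrocyte identity genes, and, of the other lists searched, for 2 of 15 immediate early genes and 0 of 10 pericyte markers. These counts describe these letters in this window only. The stretches around both boxes are shown because one belongs to a gene that was called, Ldb3, which links actinin at the contractile anchor, and the other to Myl9, which was not; capitals mark the box, which begins 161 bases before the start in Myl9 and 35 in Ldb3.
Myl9, chr2:156775243-156775372, plus strand: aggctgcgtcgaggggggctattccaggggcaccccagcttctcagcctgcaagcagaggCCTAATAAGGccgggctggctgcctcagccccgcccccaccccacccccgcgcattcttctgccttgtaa
Ldb3, chr14:34588682-34588776, minus strand: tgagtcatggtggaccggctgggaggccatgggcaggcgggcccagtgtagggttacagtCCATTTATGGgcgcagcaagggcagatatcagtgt
Ldb3 had 4.33, 49.4 and 84.7 CPM in aSMCs and 0 counts in the 3 astrocyte libraries, which makes it at least 591-fold higher in aSMCs when 3 counts over the 3 libraries are taken as the floor (adjusted p = 2.9e-05).

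Most regulators of mural identity were also higher in aSMCs. Of 17 mural transcription factors tested, 13 were higher in aSMCs and 2 in astrocytes (on library totals alone, 12 and 3). Nr2f2, which in vessels is known from veins, had 4469.6, 5674 and 6362 CPM against 19.8, 0.254 and 25.8 CPM (log2 fold change 8.48, SE 1.14, adjusted p = 6.7e-06). Ebf1, a mural factor, had 3160.3, 3778 and 4589 CPM against 11.2, 12.8 and 11 CPM (log2 fold change 8.37, SE 0.64, adjusted p = 5.5e-09). Mrtfb, a coactivator of serum response factor, had 1182, 1502 and 2101 CPM against 2.81, 4.57 and 18.9 CPM (log2 fold change 7.50, SE 0.73, adjusted p = 1.2e-07). Tbx18, a T-box factor of mural cells, had 25.6, 35.1 and 65.5 CPM in aSMCs and 0 counts in astrocytes, at least 508-fold lower there (adjusted p = 1.1e-06). Myocd, myocardin, the coactivator of serum response factor in smooth muscle, had 26.6, 66 and 154 CPM in aSMCs and 15.1, 0.381 and 0 CPM in astrocytes (log2 fold change 3.97, SE 1.33, adjusted p = 0.018; 1.68 on library totals alone). The 2 factors higher in astrocytes were Hey1 and Hey2, targets of Notch described below. Srf itself, serum response factor, did not pass, with 5.7, 10.5 and 27.1 CPM against 2.06, 0.127 and 32.2 CPM, and passed without astrocyte replicate 3 (log2 fold change 3.84, adjusted p = 0.012).

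Pericytes, the mural cells of capillaries, share a lineage with aSMCs, and their markers were also in the aSMC libraries. Of 13 members, 10 were higher in aSMCs and 0 in astrocytes, with a median log2 fold change of 8.08 (on library totals alone, 9 and 1). Rgs5, a brake on G protein signals, had 2274, 3397 and 5438 CPM against 2.25, 14.8 and 9.7 CPM (log2 fold change 8.61, SE 0.76, adjusted p = 2.9e-08). Cspg4, the NG2 proteoglycan, had 245, 358 and 459.8 CPM against 3.37, 0.507 and 0 CPM (log2 fold change 8.08, SE 1.33, adjusted p = 6.4e-05). Atp13a5, a brain pericyte transporter gene, had 228, 272 and 400.3 CPM against 0 counts (at least 3639.6-fold, adjusted p = 5.9e-09). All 3 separated the groups in every library. The potassium channel pair of pericytes was near 0: Kcnj8 had 0.285, 0.405 and 11.6 CPM and Abcc9 1.24, 2.15 and 3.14 CPM in aSMCs. Kcnj8 was called with 1 count in the astrocytes, but neither on library totals alone (adjusted p = 0.11) nor without aSMC replicate 1, its highest library (adjusted p = 0.076), or astrocyte replicate 1 (0.077) or 3 (0.079). Abcc9 was called for astrocytes on library totals alone (log2 fold change -3.52, adjusted p = 0.0043), not with TMM.

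Astrocyte identity genes went the other way, with exceptions. Of 20 members tested, 13 were higher in astrocytes and 3 in aSMCs, against 14 and 0 on library totals alone, and the median log2 fold change was -3.62. Atp1b2, a subunit of the sodium pump, had 318, 1035 and 556 CPM in astrocytes and 30.1, 53.4 and 80 CPM in aSMCs (log2 fold change -3.60, SE 0.45, adjusted p = 2.7e-06). Mlc1, a membrane protein of the endfoot, had 269, 1115 and 317 CPM and 0, 0.0387 and 1.05 CPM (log2 fold change -11.19, SE 1.25, adjusted p = 7.3e-07). Aqp4 had 564, 506 and 459.7 CPM and 0, 0 and 3.57 CPM (log2 fold change -9.69, SE 1.57, adjusted p = 5.3e-05). Aldoc, the glycolytic aldolase of astrocytes, had 108, 202 and 189.8 CPM against at most 0.243 CPM in aSMCs. All 3 astrocyte libraries were within a factor of 2 for Aqp4 and Aldoc and spread more for Mlc1. The members that did not pass besides Aldh1l1 were Acsbg1, Mfge8 and Slc7a10, and Slc7a10, an amino acid exchanger, had 0 counts in all 3 astrocyte libraries. Mfge8, a secreted protein, was higher in aSMCs without astrocyte replicate 3 (log2 fold change 4.30, adjusted p = 0.0044) or aSMC replicate 2 (log2 fold change 2.52, adjusted p = 0.045).

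The exceptions were Sox9, Gja1 and Gjb6. Sox9, a transcription factor of glia, had 272, 327 and 482 CPM in aSMCs and 118, 136 and 122 CPM in astrocytes, all 6 aSMC libraries above all 3 astrocyte libraries (log2 fold change 1.45, SE 0.52, adjusted p = 0.026), but the order turned on library totals alone (-0.75). Gja1, connexin 43 of gap junctions, had 903, 1019 and 1403 CPM and 386, 192 and 96.9 CPM (log2 fold change 2.28, SE 0.61, adjusted p = 0.0042; 0.081 on library totals alone). Gjb6, connexin 30, was a trace, with 5 or 6 counts in each aSMC library and 0 in the astrocytes, and was not called on library totals alone (adjusted p = 0.14). The Ai14 aSMCs, sorted by the same promoter with the other reporter, had lower levels of the first 2 genes, with 15.9 and 5.09 CPM for Sox9 and 9.47 and 3.18 CPM for Gja1. The Ai47 aSMCs exceeded them by a log2 fold change of 5.02 (adjusted p = 1.1e-04) for Sox9 and a log2 fold change of 7.43 (adjusted p = 1.9e-05) for Gja1. Against the same astrocytes the Ai14 aSMCs were lower in Sox9 (log2 fold change -3.57, adjusted p = 0.0024) and in Gja1 (log2 fold change -5.15, adjusted p = 5.0e-04).

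Glial transcription factors divided by family member. Of 12 tested, 4 were higher in aSMCs and 6 in astrocytes (on library totals alone, 2 and 7). Among the nuclear factor I genes, which switch on astrocyte genes in development, Nfia had 5982, 7780.5 and 8897 CPM in aSMCs and 115, 113 and 90.2 CPM in astrocytes (log2 fold change 6.15, SE 0.48, adjusted p = 6.5e-09). Nfib had 1981, 2285 and 3039 CPM and 9.27, 73.4 and 66.7 CPM (log2 fold change 5.59, SE 0.64, adjusted p = 9.8e-07). Nfix ran opposite, with 0.576, 2.96 and 5.75 CPM in aSMCs and 23.7, 422 and 44.6 CPM in astrocytes (log2 fold change -5.68, SE 0.79, adjusted p = 9.8e-06). Nfia stood at 407 and 423 CPM and Nfib at 59.3 and 71 CPM in Ai14 aSMCs, against which the Ai47 aSMCs were higher by a log2 fold change of 4.19 (adjusted p = 8.5e-06) and a log2 fold change of 5.20 (adjusted p = 5.5e-05). Zbtb20, a zinc finger repressor of astrocytes and other cells, was higher in aSMCs (log2 fold change 2.39, SE 0.47, adjusted p = 3.5e-04) with TMM, and no longer called on library totals alone (0.056). Id4, an inhibitor of bHLH factors, had 373, 652 and 84.2 CPM in astrocytes and 0.0728, 4.15 and 14.2 CPM in aSMCs (log2 fold change -6.24, SE 0.99, adjusted p = 4.3e-05). Sox2, a factor of neural stem cells and glia, had 33, 205 and 18.1 CPM and 0.0368, 0.112 and 1.96 CPM (log2 fold change -7.59, SE 1.30, adjusted p = 9.7e-05).

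The endfoot list showed which vessel-facing genes the astrocyte libraries held. Of 13 tested, 6 were higher in astrocytes and 3 in aSMCs, against 9 and 0 on library totals alone. Kcnj10, the Kir4.1 potassium channel, had 152, 694 and 239.7 CPM in astrocytes and 0.0364, 0.151 and 0.568 CPM in aSMCs (log2 fold change -10.43, SE 0.89, adjusted p = 2.0e-08). Hepacam, the adhesion molecule that anchors Mlc1, had 48.1, 40.2 and 73.3 CPM and 0.182, 0.202 and 0.314 CPM (log2 fold change -7.85, SE 0.66, adjusted p = 1.6e-08). Both separated the groups in all 9 libraries. The dystrophin complex, which ties endfoot channels to laminin and also lies in the muscle membrane, was not called with TMM: Dag1, dystroglycan, had 20.4, 81.9 and 156 CPM in aSMCs and 25.7, 27.3 and 186 CPM in astrocytes, and Dmd, dystrophin, 41, 49.3 and 126 CPM and 109, 248 and 101 CPM, with adjusted p = 0.95 and 0.052. Without astrocyte replicate 3 Dag1 passed (log2 fold change 1.88, adjusted p = 0.045). On library totals alone both were called for astrocytes (log2 fold change -2.26 for Dag1, adjusted p = 0.019, and -3.15 for Dmd, adjusted p = 6.5e-05). Dmd was also called for astrocytes under DESeq2 (adjusted p = 0.022), with DESeq2 size factors (0.032), with a filter at 1 CPM (0.049) and with thinned aSMC columns (9.5e-04).

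Transmitter uptake genes were called in one direction only: 12 of 14 members were higher in astrocytes and 0 in aSMCs, with a median log2 fold change of -4.70. Slc1a2, the glutamate transporter GLT-1, had 216, 627 and 129 CPM in astrocytes and 0.255, 0.431 and 0.838 CPM in aSMCs (log2 fold change -9.38, SE 0.64, adjusted p = 1.5e-09). Glul, glutamine synthetase, had 156, 266 and 227 CPM and 12.5, 14.2 and 26.5 CPM (log2 fold change -3.65, SE 0.41, adjusted p = 7.1e-07). Glud1, glutamate dehydrogenase, had 121, 102 and 304 CPM and 2.35, 10.8 and 31.2 CPM (log2 fold change -3.66, SE 0.68, adjusted p = 2.2e-04). Every astrocyte library exceeded every aSMC library for these 3. In the Ai14 aSMCs, however, Slc1a2 stood at 102 and 214 CPM, Glul at 113 and 124 CPM and Glud1 at 185 and 155 CPM, and none of these was called against the same astrocytes, with adjusted p = 0.32, 0.28 and 0.99. The list summed to 38.6 to 76.4 CPM in Ai47 aSMCs, 447 and 535 CPM in Ai14 aSMCs and 893, 1635 and 1045 CPM in astrocytes.

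Genes of fuel supply were mostly higher in astrocytes, 11 of 19 higher there against 2 higher in aSMCs. Slc2a1, the glucose transporter GLUT1, had 1138, 1214 and 489.8 CPM in astrocytes and 9.58, 14.5 and 26 CPM in aSMCs (log2 fold change -5.94, SE 0.52, adjusted p = 2.5e-08). The metallothioneins Mt1, Mt2 and Mt3, which bind zinc and copper, were all higher in astrocytes, Mt2 with 251, 372 and 180.04 CPM against 0.681, 1.62 and 4.55 CPM (log2 fold change -6.89, SE 0.83, adjusted p = 1.9e-06). Pkm, pyruvate kinase, was called with overlap, since replicate 2 alone carried 511 CPM and replicates 1 and 3 had 46.4 and 95.9 against up to 57 in aSMCs, and the call was lost without replicate 2 (log2 fold change -0.38, adjusted p = 0.57). Glycogen phosphorylase was split by isoform: Pygb, the brain form, had 49.9, 163 and 74.7 CPM in astrocytes and 7.58, 17.7 and 21.8 CPM in aSMCs (log2 fold change -2.58, SE 0.55, adjusted p = 7.5e-04). Pygm, the muscle form, had 52.3, 74.8 and 114 CPM in aSMCs and 1 count in all astrocyte libraries (ratio 2969 with an exact 95% counting interval of 533 to 117284). Lactate dehydrogenase was split as well, with Ldha at 209, 267 and 335 CPM in aSMCs and 38.7, 75.2 and 45.2 CPM in astrocytes (log2 fold change 2.36, SE 0.52, adjusted p = 9.3e-04; 0.26 on library totals alone) and Ldhb higher in astrocytes through replicate 2, 22.6, 195 and 7.38 CPM against 6.61, 9.91 and 17 CPM (log2 fold change -2.77, SE 0.68, adjusted p = 0.0025; log2 fold change -0.14, adjusted p = 0.86 without it).

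Lipid genes went both ways. Of 15 tested, 5 were higher in aSMCs and 7 in astrocytes (on library totals alone, 2 and 8). The astrocytes had more Scd2, a fatty acid desaturase (944, 1913 and 464 CPM against 2.44, 2.78 and 26.3 CPM, log2 fold change -6.83, SE 0.85, adjusted p = 2.8e-06), Fads2, another desaturase (172, 481 and 163 CPM against 0.157, 5.02 and 22 CPM), and Apoe, the lipoprotein of the brain (247, 226 and 257 CPM against 36.7, 40.5 and 49.4 CPM, log2 fold change -2.56, SE 0.50, adjusted p = 3.5e-04). Apoe varied little among the 3 astrocyte libraries, and the groups did not overlap for any of these 3 genes. Abcg1, which exports cholesterol, was higher in aSMCs, 329, 377 and 502 CPM against 33.3, 56.4 and 0.101 CPM (log2 fold change 3.76, SE 1.07, adjusted p = 0.0066; 1.81 on library totals alone).

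**Figure D2:**
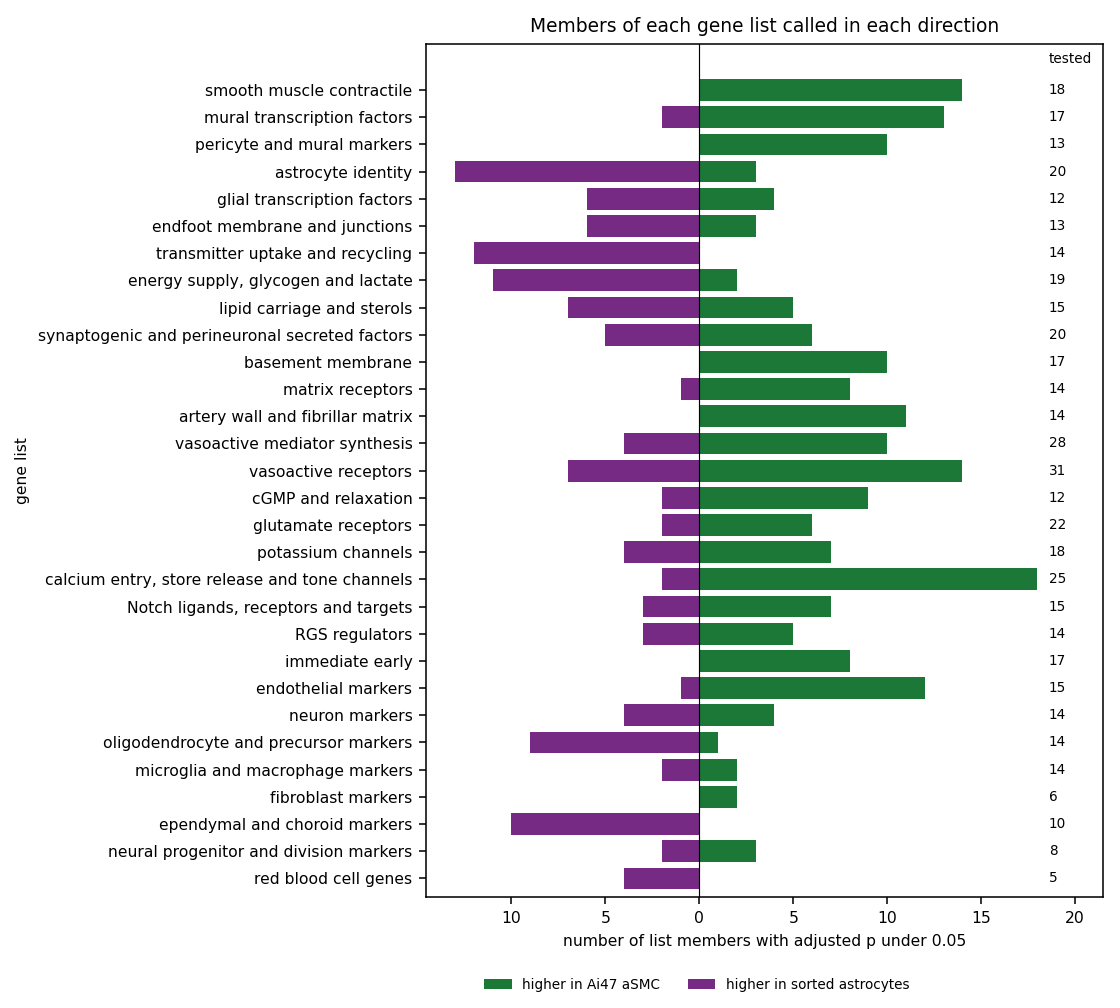
Bars give, for each of 30 gene lists, the number of members called at an adjusted p under 0.05, to the right where Ai47 aSMCs were higher (green) and to the left where sorted astrocytes were higher (purple); the number at the right is how many members were tested. Contractile, pericyte, basement membrane and artery wall genes were called only to the right, and transmitter uptake and ependymal genes only to the left.

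Genes of the matrix between the cells were mostly higher on the muscle side. Of 17 basement membrane genes, 10 were higher in aSMCs and 0 in astrocytes (on library totals alone, 6 and 2). Lama4, a laminin chain of vessels, had 104, 116 and 148 CPM against 0.0936, 0.254 and 0.96 CPM (log2 fold change 8.01, SE 1.20, adjusted p = 2.2e-05). Col4a1, a collagen IV chain, had 58.9, 91 and 107 CPM against 1.31, 0.634 and 0 CPM (log2 fold change 7.14, SE 1.05, adjusted p = 1.9e-05). Lamb2, a further laminin chain, was called (20, 50.1 and 85.1 CPM against 0.281, 8.12 and 6.87 CPM, log2 fold change 3.29, SE 0.82, adjusted p = 0.0026; 1.24 on library totals alone). Lamc1, a laminin chain shared by most laminins, did not pass, since astrocyte replicate 2 alone had 325 CPM against 19.9 and 10.8 in the others and 30.2, 57.5 and 221 CPM in aSMCs, and without that library it was higher in aSMCs (log2 fold change 2.81, adjusted p = 0.0073). The laminin chains made by astrocytes at the endfoot, Lama1 and Lama2, were at most 5.35 CPM in any of the 9 libraries, and neither was called. Lama1 had 5 counts in each of the 6 aSMC libraries and 0 in the astrocytes.

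Of 14 artery wall genes tested, 11 were higher in aSMCs and 0 in astrocytes (on library totals alone, 4 and 0), and 7 were without astrocyte replicate 1. Col1a2 had 75.4, 109 and 195 CPM against 6.84, 1.78 and 0.657 CPM (log2 fold change 5.20, SE 0.79, adjusted p = 2.6e-05). Eln, elastin, had 21.1, 43.4 and 80.4 CPM against 0, 1.65 and 0.253 CPM (log2 fold change 6.21, SE 1.32, adjusted p = 7.3e-04). Col1a1, the partner chain of Col1a2 in collagen I, had 1435, 1601 and 2248 CPM in Ai47 aSMCs, 0.468, 1.65 and 0.202 CPM in astrocytes and 1.13 and 2.88 CPM in Ai14 aSMCs, where Col1a2 had 76.9 and 118 CPM. The Col1a1 counts were 39417 to 40086 in the 6 Ai47 columns. Of 6 fibroblast markers tested, 2 were higher in aSMCs and 0 in astrocytes, with Dcn, decorin, at 0.764, 1.15 and 19.1 CPM in aSMCs and Pdgfra at 0 counts there. Dcn passed without astrocyte replicate 2 (log2 fold change 5.46, adjusted p = 0.020).

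Among matrix receptors, 8 of 14 were higher in aSMCs and 1 in astrocytes. On library totals alone 4 and 4 were called, where 12.3% and 42.5% of all genes were called in those directions. Itga1, a collagen receptor chain, had 133, 229.7 and 326 CPM against 0.187, 0.888 and 0.404 CPM (log2 fold change 8.90, SE 0.77, adjusted p = 2.4e-08). Itga7, a laminin receptor chain of muscle, had 105, 178 and 258 CPM against 1 count in all astrocyte libraries (ratio 7233 with an exact 95% counting interval of 1298 to 285704). Itgb8, which frees TGF-beta from its latent complex, was the one called for astrocytes: 172, 207 and 77.1 CPM there and 0.0368, 0.0547 and 0.203 CPM in aSMCs (log2 fold change -10.80, SE 0.78, adjusted p = 2.3e-09), apart in all 9 libraries. Cd44, the hyaluronan receptor, had 429, 483 and 688 CPM and 22.1, 35.4 and 250.1 CPM (log2 fold change 2.35, SE 0.92, adjusted p = 0.039; -0.070 on library totals alone), and Ai14 aSMCs had 5.78 and 1.94 CPM. The 6 Cd44 counts in aSMCs lay within 5% of each other, at 11732 to 12071. The Cd44 call was lost without astrocyte replicate 1 (adjusted p = 0.071) or 2 (0.065).

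Signals that act on the arteriole were sorted by mediator. Endothelin-1 constricts smooth muscle through the receptor encoded by Ednra. Edn1 had 28.9, 39.3 and 85.5 CPM in aSMCs and 0 counts in the astrocytes (at least 540.3-fold higher in aSMCs, adjusted p = 2.9e-06). Ece1, the enzyme that cuts the peptide free, had 851, 1337 and 1689.9 CPM against 0.468, 0.761 and 0.657 CPM (log2 fold change 10.94, SE 0.80, adjusted p = 3.0e-09). The endothelin receptors were called in opposite directions. Ednra had 0.912, 8.82 and 33.6 CPM in aSMCs and 0.281, 0.381 and 0.556 CPM in astrocytes (log2 fold change 4.82, SE 1.05, adjusted p = 8.8e-04), with 344 and 316 CPM in Ai14 aSMCs, while Ednrb had 0.485, 26.3 and 35.3 CPM and 79.8, 237 and 18.5 CPM (log2 fold change -2.44, SE 0.97, adjusted p = 0.041). For Ednrb, astrocyte replicate 3 lay inside the aSMC range, 2 aSMC libraries were near 0, and the call was lost in 8 of the 9 fits that left out 1 library.

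The receptor for the dilator CGRP is made of 2 proteins, and they were called in opposite directions. Calcrl, the receptor chain, had 98.7, 122 and 156 CPM in aSMCs and 3 counts over the astrocyte libraries (ratio 1550.5 with an exact 95% counting interval of 530.5 to 7519). Ramp1, the chain that makes it a CGRP receptor, had 77.6, 204 and 38.6 CPM in astrocytes and 1.21, 3.23 and 5.47 CPM in aSMCs (log2 fold change -5.05, SE 0.79, adjusted p = 3.4e-05), and the same order held for Ramp1 in Ai14 aSMCs, at 7 and 1.88 CPM. Ramp2, which turns Calcrl into an adrenomedullin receptor, had 2.21, 3.26 and 5.76 CPM in aSMCs and 0, 0.254 and 0.303 CPM in astrocytes (log2 fold change 4.19, SE 1.16, adjusted p = 0.0057). In the aSMCs both partner chains were at a few CPM, and Ramp2 was not called on library totals alone (adjusted p = 0.14).

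Adenosine, which relaxes arterioles, is read by receptors that also went both ways. Adora2a, coupled to cyclic AMP, had 1.37, 4.3 and 15 CPM in aSMCs and 0 counts in astrocytes (at least 87.7-fold, adjusted p = 9.3e-04). Adora1, the inhibitory receptor, had 72.9, 14.7 and 0.606 CPM in astrocytes and at most 0.0811 CPM in aSMCs (log2 fold change -9.42, SE 1.09, adjusted p = 1.1e-06). Adora2b, the low-affinity receptor, had 27.8, 81.7 and 14.7 CPM and 0, 0 and 0.258 CPM (log2 fold change -9.60, SE 1.63, adjusted p = 8.7e-05). For noradrenaline, Adra2b had 123, 249 and 525 CPM in aSMCs and 0 counts in astrocytes (at least 3361-fold), but 2.25 and 1.39 CPM in Ai14 aSMCs. Adra1a, an alpha-1 receptor through which sympathetic nerves constrict, was called with overlap, 0.105, 12.1 and 35.9 CPM against 0.562, 0 and 0 CPM (log2 fold change 6.32, SE 1.91, adjusted p = 0.0098; adjusted p = 0.058 on library totals alone). Adrb1 was called higher in astrocytes with replicate 2 at 318 CPM against 0.281 and 6.16 in the other 2, and the call was lost without replicate 2 (log2 fold change -1.49, adjusted p = 0.27).

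Among receptors for ATP, P2rx1, the channel by which nerve-released ATP constricts arteries, had 13.5, 44.9 and 123 CPM in aSMCs and 2 counts in the astrocytes (ratio 1009.7 with an exact 95% counting interval of 279 to 8339). P2ry1, a calcium-raising receptor of astrocytes, had 15, 8.37 and 0 CPM in astrocytes and 0.109, 0.135 and 0.367 CPM in aSMCs (log2 fold change -5.37, SE 1.28, adjusted p = 0.0019), although astrocyte replicate 3 had none. P2ry14, a receptor for UDP-sugars, had 58, 70.6 and 101 CPM in aSMCs and 1.59, 0 and 0.101 CPM in astrocytes (log2 fold change 7.04, SE 1.29, adjusted p = 1.9e-04). Ptgir, the prostacyclin receptor, had 1.52, 14.7 and 26.2 CPM and Npy1r, the neuropeptide Y receptor, 13.6, 44.5 and 73.1 CPM in aSMCs. Ptgir had 0 counts in astrocytes (at least 193-fold), and Npy1r had 0.562, 11.4 and 0.101 CPM (log2 fold change 3.53, SE 1.10, adjusted p = 0.012; 1.82 on library totals alone). The natriuretic receptor gene Npr2, a guanylyl cyclase, was called for astrocytes, 2.81, 8.12 and 21.7 CPM against 0.295, 0.511 and 0.811 CPM (log2 fold change -4.42, SE 1.28, adjusted p = 0.0076), and lost the call without astrocyte replicate 3 (adjusted p = 0.056). Over the whole list of vasoactive receptors, 14 of 31 tested were higher in aSMCs and 7 in astrocytes (on library totals alone, 9 and 7). With the Ai14 aSMCs against the same astrocytes, 13 and 4 of the 31 were called, where 13.6% and 3.56% of all genes were called in those directions.

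**Figure D3:**
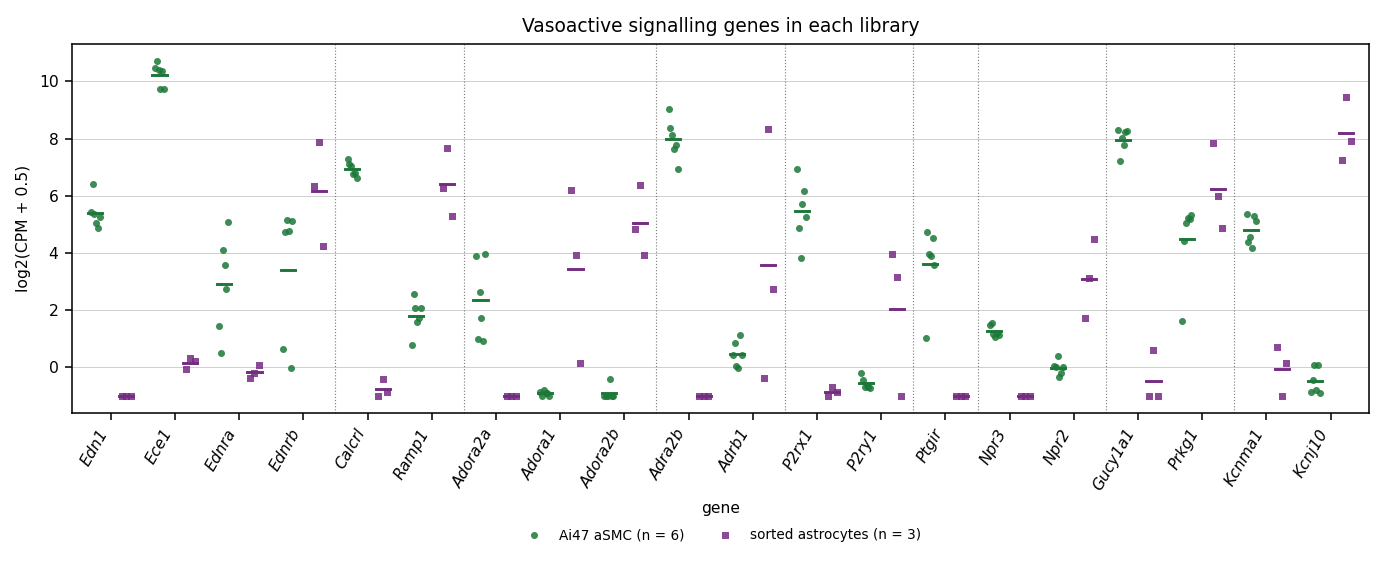
Each point is the level of a gene in 1 library, as log2(CPM + 0.5), in 6 Ai47 aSMC libraries (green circles) and 3 sorted astrocyte libraries (purple squares), with bars at the group means and dotted lines between signalling systems. Within the CGRP and adenosine systems, one receptor gene is higher in green and another in purple, and single purple points carry the high values of Adrb1. For endothelin, Ednra is higher in green, while Ednrb overlaps between the groups.

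On the sending side are the enzymes and peptides that make vasoactive mediators. Of 28 genes tested, 10 were higher in aSMCs and 4 in astrocytes (35.7% and 14.3%, against 26.1% and 23.8% of all genes). On library totals alone 9 and 12 were called, where 12.3% and 42.5% of all genes were called in those directions. Ptgs1, the cyclooxygenase often assigned to astrocyte endfeet, had 0 counts in all 3 astrocyte libraries, and Ptgs2, the inducible form, had 0 counts too. Their levels in aSMCs were 0.283, 0.492 and 1.1 CPM and 0.516, 0.781 and 12.3 CPM. Pla2g4a, the phospholipase that frees arachidonic acid, had 0, 0 and 3.59 CPM in astrocytes and 0.921, 1.05 and 5.61 CPM in aSMCs and was not called, but it was higher in aSMCs without astrocyte replicate 3 (log2 fold change 8.19, adjusted p = 0.0047). Ptges3, a prostaglandin E synthase and co-chaperone, was abundant in both, 1134, 1238 and 1423 CPM in aSMCs and 629.8, 547 and 325 CPM in astrocytes (log2 fold change 1.32, SE 0.44, adjusted p = 0.017; -0.83 on library totals alone). Mgll, which breaks down an endocannabinoid into arachidonic acid, had 125, 217 and 312 CPM in aSMCs and 0.0936, 0.127 and 0.657 CPM in astrocytes (log2 fold change 9.40, SE 0.92, adjusted p = 1.2e-07). The epoxygenase genes went both ways. Cyp2j6 was higher in aSMCs, 55.6, 61.8 and 87 CPM against 0 counts in astrocytes (adjusted p = 1.4e-05), with 1525 to 1527 counts in the 6 columns. Cyp2j9 was called for the astrocytes, 24.7, 0 and 0.404 CPM against 0.0364, 0.0405 and 0.057 CPM, on replicate 1 (log2 fold change -1.97, adjusted p = 0.11 without it). Hmox1, which releases carbon monoxide, was called for them on replicate 3, with 0, 0.381 and 78.7 CPM against 0.568, 0.67 and 0.946 CPM (log2 fold change 2.10, adjusted p = 0.26 without it). Ephx1 and Npy were the other 2 called for astrocytes, with 37.6, 215 and 15.4 CPM and 6.09, 0 and 1.52 CPM, Ephx1 on replicate 2 (log2 fold change -1.29, adjusted p = 0.33 without it).

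Genes of relaxation by cyclic GMP were mostly higher in the muscle, 9 of 12 in aSMCs and 2 in astrocytes (on library totals alone, 6 and 2). Gucy1a1, a subunit of the nitric oxide receptor, had 148, 281 and 311 CPM against 0, 1.01 and 0 CPM (log2 fold change 9.77, SE 1.23, adjusted p = 3.0e-06). Ppp1r12a, the subunit that targets phosphatase to myosin, had 1696, 1725 and 2221 CPM against 0.468, 1.27 and 6.67 CPM (log2 fold change 9.34, SE 0.85, adjusted p = 4.6e-08). Prkaca, the catalytic subunit of the cyclic AMP kinase, had 709.5, 843 and 1026 CPM against 42.8, 97.4 and 104 CPM (log2 fold change 3.38, SE 0.52, adjusted p = 3.1e-05; 1.18 on library totals alone). Pde3a, a phosphodiesterase, was called (log2 fold change 2.89, SE 1.19, adjusted p = 0.049; 1.22 on library totals alone, not called) with 159 CPM in astrocyte replicate 2 and 300.3 CPM in the lowest aSMC library, and lost the call without astrocyte replicate 1 or 3 (adjusted p = 0.085 and 0.089). Prkg1, the kinase that cyclic GMP activates in smooth muscle, ran against the list: 2.57, 34.2 and 39.9 CPM in aSMCs and 227, 62.4 and 29.1 CPM in astrocytes (log2 fold change -1.92, SE 0.72, adjusted p = 0.031), with astrocyte replicate 3 inside the aSMC range and the call lost in 7 of the 9 fits that left out 1 library. In Ai14 aSMCs Prkg1 had 388 and 355 CPM, from which the Ai47 aSMCs differed by a log2 fold change of -3.72 (adjusted p = 0.0017). The other gene against the list was Pde9a, 0.375, 0 and 18.1 CPM in astrocytes, which rests on replicate 3 (log2 fold change 0.060, adjusted p = 1.0 without it).

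Of 18 potassium channel genes, 7 were higher in aSMCs and 4 in astrocytes (38.9% and 22.2%, against 26.1% and 23.8% of all genes). On library totals alone 2 and 8 were called, where 12.3% and 42.5% of all genes were called in those directions. The 7 became 4 without astrocyte replicate 1 and 3 without replicate 3. Kcnab1, a beta subunit, had 73.3, 110.4 and 185 CPM in aSMCs and 0, 3.17 and 0.253 CPM in astrocytes (log2 fold change 6.70, SE 1.12, adjusted p = 7.0e-05). Kcnma1, the pore of the calcium-activated BK channel, had 17.4, 28.7 and 40.3 CPM and 1.12, 0 and 0.606 CPM (log2 fold change 5.60, SE 0.89, adjusted p = 4.3e-05). Kcnmb1, the BK beta subunit of smooth muscle, did not separate the groups: 5.98, 30.3 and 62.2 CPM in aSMCs and 55.2, 19.5 and 57.7 CPM in astrocytes, not called (log2 fold change -0.49, SE 0.86, adjusted p = 0.66; -2.81 on library totals alone). In the astrocytes, Kcnj16, the partner of Kcnj10, had 96, 203 and 151 CPM (log2 fold change -8.42, SE 1.23, adjusted p = 1.6e-05). Kcnn3, a small-conductance channel, had 44.4, 25.4 and 11.4 CPM with 0 counts in all 6 aSMC libraries (at least 1100.2-fold higher in astrocytes). Kcnj2, the Kir2.1 channel that senses potassium from endfeet, had 0.243, 0.537 and 3.76 CPM in aSMCs and 0, 0.127 and 2.83 CPM in astrocytes and was called only without astrocyte replicate 3 (log2 fold change 4.30, adjusted p = 0.041).

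Of 25 genes of calcium entry, store release and tone, 18 were higher in aSMCs and 2 in astrocytes (on library totals alone, 9 and 4). Atp2b1, a plasma membrane calcium pump, had 323, 453 and 589.5 CPM against 85.4, 34.5 and 114 CPM (log2 fold change 2.56, SE 0.50, adjusted p = 3.2e-04; 0.24 on library totals alone). Cacna1c, the pore of the L-type channel that drives tone, had 13.4, 32.5 and 61.7 CPM against 0.187, 0.127 and 0.505 CPM (log2 fold change 6.85, SE 0.95, adjusted p = 9.3e-06), and its partner Cacna2d1 181, 257 and 369 CPM against 19.6, 0 and 0.101 CPM (log2 fold change 5.34, SE 1.29, adjusted p = 0.0021). Cacnb2, a beta subunit of calcium channels, had 150.4, 184 and 313 CPM against 0.749, 21.6 and 7.53 CPM (log2 fold change 4.45, SE 0.89, adjusted p = 4.5e-04). Itpr1, the release channel of the muscle store, had 12.7, 66.5 and 95.6 CPM against 0.375, 0.634 and 1.11 CPM (log2 fold change 6.40, SE 0.83, adjusted p = 4.4e-06), and Itpr2, the release channel of astrocytes, was also called for the aSMCs, with overlap, at 1.41, 17.4 and 27.8 CPM against 3.56, 0 and 3.64 CPM (log2 fold change 2.64, SE 1.08, adjusted p = 0.047; 0.31 on library totals alone). Atp2a2, the pump that refills the store, was higher in astrocytes, 128, 533 and 132 CPM against 43, 102 and 159 CPM (log2 fold change -1.37, SE 0.48, adjusted p = 0.023), but the Ai14 aSMCs had 964 and 909 CPM, and the call was lost in 7 of the 9 fits that left out 1 library. Trpc1 was the other, 6.65, 8.75 and 15.2 CPM in astrocytes against 0, 0.0938 and 3.04 CPM in aSMCs, and was not called without aSMC replicate 2 (adjusted p = 0.051) or astrocyte replicate 3 (0.055).

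Glutamate receptor genes, which the study examined in aSMCs, had low levels in both populations, summing to 5.42 to 22.3 CPM in aSMCs and 4.12, 4.82 and 7.98 CPM in astrocytes over the whole list. Grin1, the NMDA receptor subunit, had 0.111, 0.3 and 0.364 CPM in aSMCs, from 3 to 10 counts a library, and 0 counts in the astrocytes. It was called (adjusted p = 0.0058), the floor makes it at least 3.54-fold higher, and on library totals alone it was not called (adjusted p = 0.074). Of 22 tested, 6 were higher in aSMCs and 2 in astrocytes, against backgrounds of 26.1% and 23.8%, and on library totals alone 0 and 3 were called. The 6 became 3 without astrocyte replicate 1 and 2 without replicate 3. Gria2 and Grik2 were those called for astrocytes, at 0.749, 0.634 and 0.101 CPM and 1.4, 3.3 and 5.91 CPM.

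Notch signals pass between mural cells and their neighbours by contact. Jag1, a ligand, had 9795, 11954 and 13474 CPM in aSMCs and 0, 0 and 10.7 CPM in astrocytes (log2 fold change 11.65, SE 1.65, adjusted p = 1.3e-05). Notch2, a receptor, had 8322, 10119 and 12750 CPM and 85.6, 75.7 and 16.7 CPM (log2 fold change 7.44, SE 0.71, adjusted p = 8.6e-08). Notch3, the receptor of arterial muscle, had 86.3, 126 and 235 CPM and 0.375, 1.01 and 0.0505 CPM (log2 fold change 8.33, SE 0.88, adjusted p = 3.4e-07). Heyl, its target, had 131, 250.4 and 357 CPM and 0, 0.507 and 0.0505 CPM (log2 fold change 10.60, SE 1.29, adjusted p = 2.1e-06). The sister targets were on the other side: Hey1 had 58.8, 429 and 90.5 CPM in astrocytes and 0.364, 0.576 and 6.69 CPM in aSMCs (log2 fold change -6.95, SE 1.0, adjusted p = 1.4e-05). Hey2 had 67, 254 and 32.6 CPM and 2.64, 4.65 and 13.3 CPM (log2 fold change -4.17, SE 0.79, adjusted p = 2.4e-04). In the Ai14 aSMCs, however, Hey2 stood at 81.9 and 94.9 CPM and Hey1 at 12.6 and 12.8 CPM. Neither was called there against the same astrocytes (Hey2 log2 fold change -0.41, adjusted p = 0.82, and Hey1 -3.92, adjusted p = 0.058). Dner, a further ligand, was called for the astrocytes with 23.4, 0 and 0.253 CPM, high in replicate 1 only. Without that library its sign turned (log2 fold change 2.41, adjusted p = 0.15), and the call was lost without each aSMC library too, 7 of the 9 fits that left out 1 library. Of 15 genes, 7 were higher in aSMCs and 3 in astrocytes (on library totals alone, 6 and 4). Jag1 and Notch2 were at 133 and 161 CPM and 108 and 113 CPM in Ai14 aSMCs, and the Ai47 aSMCs exceeded these by a log2 fold change of 6.32 (adjusted p = 0.0064) and a log2 fold change of 6.54 (adjusted p = 1.1e-05), while Notch3 was at 592 and 622 CPM there.

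Of 20 secreted factors that shape synapses, 6 were higher in aSMCs and 5 in astrocytes. These shares, 30% and 25%, are near the background of 26.1% and 23.8%. On library totals alone 2 and 8 were called, where 12.3% and 42.5% of all genes were called in those directions. Sparcl1, hevin, had 359, 768 and 825 CPM in aSMCs and 13.6, 79.3 and 34.6 CPM in astrocytes (log2 fold change 3.94, SE 0.63, adjusted p = 4.4e-05). Sparc had 848, 1044 and 1260.1 CPM and 456, 101 and 444 CPM (log2 fold change 1.63, SE 0.49, adjusted p = 0.0090), with its order turned on library totals alone (-0.72). Cst3, cystatin C, was likewise called with TMM and not on library totals (log2 fold change 2.17, SE 0.46, adjusted p = 7.0e-04; -0.023 on library totals alone). Vegfa, Chrdl1, Il33, Bcan and Mdk were called for astrocytes, each with at least 1 astrocyte library at or below 0.127 CPM, and for Vegfa the values were 2.34, 0 and 31.7 CPM. Il33 had counts in replicate 3 only, at 9.6 CPM. None of these 5 was called without replicate 3, where Vegfa had a log2 fold change of -2.19, Chrdl1 -1.46 and Bcan 1.43. The Mdk call was lost in 7 of the 9 fits that left out 1 library, including that one (log2 fold change -3.40, adjusted p = 0.082).

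Of 14 regulators of G protein signalling, 5 were higher in aSMCs, Rgs4 among them (214, 266 and 391 CPM against 2.25, 42.4 and 12.5 CPM, log2 fold change 3.86, SE 0.74, adjusted p = 2.7e-04), and 3, Rgs20, Rgs19 and Rgs10, in astrocytes, and on library totals alone each direction had 4. Rgs20 had 30.7, 11.5 and 1.21 CPM in astrocytes and 0.0368, 0.081 and 0.157 CPM in aSMCs (log2 fold change -7.27, SE 0.94, adjusted p = 4.3e-06), and Rgs19 and Rgs10 each had 0 counts in astrocyte replicate 2. The Rgs19 call was lost in 8 of the 9 fits that left out 1 library. Without replicate 1, Rgs10 turned (log2 fold change 2.70, adjusted p = 0.31) and 1 of the 3 was called. Immediate early genes, which rise within minutes of stimulation or of tissue dissociation, were higher in aSMCs in 8 of 17 cases and in astrocytes in 0 (on library totals alone, 6 and 3). Btg2 had 13781, 18435 and 19145 CPM in aSMCs and 29, 36.4 and 41 CPM in astrocytes (log2 fold change 8.93, SE 0.76, adjusted p = 2.1e-08), and Fos 1715, 2299 and 2746 CPM and 5.9, 22.1 and 42.9 CPM (log2 fold change 6.59, SE 0.85, adjusted p = 4.2e-06). Klf4 had 672, 776 and 940.1 CPM and 0.0936, 0.127 and 3.08 CPM (log2 fold change 9.39, SE 1.21, adjusted p = 4.1e-06). Jun, Egr1 and Dusp1, of the same class, did not pass, and Egr1 had 231, 300.3 and 414 CPM in aSMCs and 0.655, 378 and 155 CPM in astrocytes (adjusted p = 0.43), and Jun passed without astrocyte replicate 2 (log2 fold change 1.52, adjusted p = 0.029). The part of dissociation in these values was not tested.

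Markers of other cells moved with the groups as well. All 10 ependymal and choroid genes tested were higher in astrocytes, also on library totals alone, with a median log2 fold change of -8.24, and they summed to 2156, 3215 and 1042 CPM in the astrocyte libraries against 9.46 to 41.6 in aSMCs. Foxj1, the master factor of motile cilia, had 258, 525 and 237 CPM in astrocytes and 0, 0.059 and 1.05 CPM in aSMCs (log2 fold change -10.57, SE 1.36, adjusted p = 4.1e-06). Rarres2, an ependymal secreted protein gene, had 299.6, 578 and 247 CPM and 4.39, 7.49 and 38.4 CPM (log2 fold change -4.95, SE 0.88, adjusted p = 1.4e-04). Ttr, transthyretin of the choroid plexus, had 709, 1243 and 3.03 CPM, high in replicates 1 and 2 only. The labels name cerebral cortex as the source of these cells, and the part of ependymal or choroid cells in the astrocyte values was not tested.

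Oligodendrocyte genes were called for the astrocytes in 9 of 14 cases and for aSMCs in 1, several of them through replicate 3: Mbp had 16.9, 8.25 and 113 CPM and Cldn11 0, 0.254 and 56.9 CPM. Without replicate 3 the 9 became 3, and Cldn11 was higher in aSMCs (log2 fold change 3.61, adjusted p = 0.048), and the Cldn11 call was also lost without aSMC replicate 4 or 6 (adjusted p = 0.051 and 0.051). Cnp was the exception with 74.4, 175 and 33.8 CPM in the 3 libraries. The one gene called for aSMCs, Gpr17 of precursors, was high in aSMC replicate 5 alone (0.0364, 0.0809 and 6.99 CPM). Its call was lost without that library (log2 fold change 3.73, adjusted p = 0.076), without any 1 of the astrocyte libraries (adjusted p = 0.059, 0.052 and 0.069) and on library totals alone (0.095). Of 15 endothelial genes, 12 were higher in aSMCs and 1 in astrocytes (on library totals alone, 6 and 2): Esam, also a mural gene, had 193, 242 and 289 CPM, Flt1, a VEGF receptor, 22, 45.9 and 65.4 CPM, and Cldn5, a tight junction gene, 21.6, 29.5 and 46.6 CPM in aSMCs. Pecam1, which encodes the CD31 of the negative gate, did not pass, with 17.4, 26.9 and 47.2 CPM in aSMCs and 26.4, 39.8 and 23.4 CPM in astrocytes, with a log2 fold change of -2.17 on library totals alone. Mfsd2a, a lipid transporter of the barrier, was called for astrocytes on replicate 2, with 6.46, 272 and 0 CPM (log2 fold change -1.41, adjusted p = 0.28 without it).

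Ptprc, which encodes the CD45 of the other gate, had 0.327, 0.719 and 38 CPM in aSMCs and 0 counts in astrocytes, and its highest value belongs to aSMC replicate 1 alone. Microglial genes summed to at most 43.1 CPM in aSMCs and 24.8 CPM in astrocytes, with Aif1 and C1qc at 0 counts in all 9 libraries. Of 14 tested, 2 were higher in aSMCs and 2 in astrocytes, P2ry12 and P2ry13. P2ry12 was at 1.87, 2.54 and 1.87 CPM in astrocytes, and P2ry13 turned without replicate 3 (log2 fold change 2.36, adjusted p = 0.51). Of 14 neuronal genes, 4 were higher in aSMCs and 4 in astrocytes, the latter becoming 2 without astrocyte replicate 3, and Rbfox3, which encodes NeuN, had 0 counts in all 9. Map2, a microtubule protein, was one of those called for astrocytes (124, 87.8 and 72.7 CPM against 25.6, 27.7 and 33.4 CPM, log2 fold change -1.73, SE 0.36, adjusted p = 5.6e-04). Of 8 progenitor and division genes, 3 were higher in aSMCs, of which Egfr, the EGF receptor, had 88, 99.4 and 138 CPM against 0, 0.127 and 1.26 CPM (log2 fold change 7.71, SE 1.10, adjusted p = 1.4e-05; raw counts 2418 to 2485 in the 6 aSMC columns, within 5%), and 2 in astrocytes. The progenitor genes Dcx and Dlx2 had 9.45 and 21.5 CPM in astrocyte replicate 3 and at most 0.254 in the other 2, and Dcx was not called without replicate 3 (log2 fold change -0.030, adjusted p = 1.0). Of 5 red blood cell genes, the 4 globin genes, near-identical copies that can share reads, were called for astrocytes, and Alas2 was not called. The summed level of all 5 was 38.4, 34.6 and 5.81 CPM in astrocytes. The part of these cells in the other results was not tested.

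Genes of the Y chromosome also differed between the groups, to unequal extents. Ddx3y, an RNA helicase gene, had 689, 1378 and 1971 CPM in aSMCs and 0 counts in all 3 astrocyte libraries, and Eif2s3y, a translation factor gene, 21.5, 64.7 and 165 CPM and 0 counts. Uty, a demethylase gene, was called with counts in all 3 astrocyte libraries, 269.9, 335 and 534 CPM against 4.12, 1.65 and 2.93 CPM (log2 fold change 6.93, SE 0.76, adjusted p = 5.5e-07). Kdm5d, another demethylase gene, was not called, with 8.41, 10.2 and 17.6 CPM in aSMCs and 0.187, 0.127 and 5.81 CPM in astrocytes (adjusted p = 0.095; log2 fold change 2.43, and -0.048 on library totals alone). In the Ai14 aSMCs, Ddx3y had 0.0609 and 0.0606 CPM, Eif2s3y 0.183 and 0 CPM, Uty 2.92 and 3.12 CPM and Kdm5d 2.47 and 4.09 CPM. The raw counts of Ai47 aSMC replicates 1 and 2 were 13143 and 13124 for Ddx3y and 410 and 410 for Eif2s3y. They were 5151 and 5143 for Uty and 335 and 215 for Kdm5d. The labels give no sex, and sex and cell type cannot be told apart in this comparison.

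The largest differences were named by a rule of at least 50 CPM in the higher group and no overlap, 15 in each direction. Among those higher in astrocytes, Spag16, of the ciliary axoneme, had 173, 121 and 170.1 CPM, Iqub, of the radial spoke, 175, 206 and 56.4 CPM, and Cfap206, of the axoneme, 182, 217 and 65.2 CPM, with at most 1 count in any aSMC library. Efcab1, Ccdc89, Jhy and Mdh1b were in the same list, as was Otx2, a factor of the choroid plexus, with 35.5, 181 and 58.3 CPM and 0 counts in aSMCs (at least 3616-fold higher in astrocytes). The first by size was Cdr1, with 1759, 2192 and 1057 CPM in astrocytes and 1 count over the 6 aSMC libraries (ratio 208967 with an exact 95% counting interval of 37504 to 8253890). Whether its reads come from the sense or the antisense strand cannot be told, since the strand setting is not given. Slc25a18, the mitochondrial glutamate carrier, had 2.15, 121 and 47.3 CPM and 0 counts in aSMCs. Pard6b, Uox and Syt10 completed the list with Rpl9-ps6 and Rpl3-ps1, ribosomal protein pseudogenes whose reads are shared with their parent genes and whose values are uncertain for that reason.

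Among those higher in aSMCs, Efna5, an ephrin ligand, had 6765, 7653 and 10808 CPM and 0 counts in astrocytes (at least 102563-fold), and 0.517 and 1.33 CPM in Ai14 aSMCs. Thbd, thrombomodulin, an endothelial anticoagulant receptor, had 12846, 14272 and 19912 CPM against 3 counts (ratio 191392 with an exact 95% counting interval of 65491 to 928078), and 44.8 and 35.1 CPM in Ai14 aSMCs. Pear1, a platelet receptor gene, had 1590.1, 2316 and 2809 CPM against 0 counts and 37.7 and 38.6 CPM in Ai14 aSMCs. The others were Ddx3y, Ankrd23, Zfp948, Ncoa3, Slc18a2, Sirt6, Crispld2, Runx1t1, Stoml1, Insyn2a, Zfp57 and Map2k3. Zfp57, a zinc finger gene of imprinting, showed the same count in all 6 columns but for a single read, 7193 or 7194, in libraries of different depth. In 3 of the 15, Efna5, Thbd and Zfp57, the 6 counts were within 5%, at 185942 to 189667 for Efna5 and 347615 to 353092 for Thbd. In 10 of the 15 both Ai14 aSMC libraries were under 1% of the Ai47 mean.

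**Figure D4:**
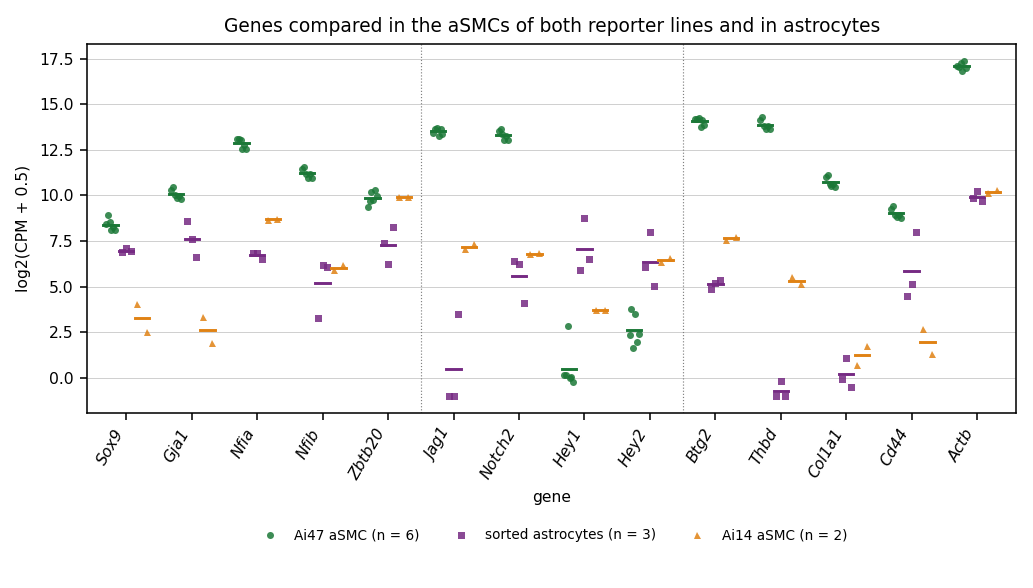
Each point is the level of a gene in 1 library, as log2(CPM + 0.5), in 6 Ai47 aSMC libraries (green circles), 3 sorted astrocyte libraries (purple squares) and 2 Ai14 aSMC libraries (orange triangles), with bars at the group means; dotted lines separate glial genes, Notch genes and others. For Sox9, Gja1, Btg2, Thbd, Col1a1, Cd44 and Actb the green points lie above both of the other groups, and the orange points lie near or below the purple ones for Sox9, Gja1, Cd44 and Actb.

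Leaving out astrocyte replicate 3, which carried the oligodendrocyte and progenitor genes, gave 4383 genes higher in aSMCs and 2795 higher in astrocytes, and leaving out replicate 1 or 2, which carried Ttr, gave 3996 and 2953 without replicate 1 and 3997 and 3172 without replicate 2. With the 6 aSMC columns summed into 1 library, because of their near-identical counts, 2447 and 462 genes were called, and the contractile and astrocyte identity lists gave 13 and 10 in place of 14 and 13.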

How the data were processed

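RNA was measured by bulk sequencing of sorted cells and cortex. The authors deposited one table of raw counts per gene and library, whole numbers for 21640 genes in 17 columns, all of which were matched to samples. Their processing notes name Trim Galore 0.6.7, FastQC 0.11.9, MultiQC 1.13, Salmon 1.4.0 and the GRCm38 build, while the study's methods for aSMCs name TopHat and htseq-count, so which tool made these counts, and their strand setting, could not be settled. The labels name NuGEN Ovation amplification kits and the methods a TruSeq kit. PCR duplicates are not marked by molecular identifiers, so counting intervals cover counting error only.

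Genes were kept by edgeR's filterByExpr at a minimum count of 10, libraries were scaled by TMM, and all 17 libraries in 4 groups were fitted by edgeR 4.0.16 (R 4.3.3, glmQLFit and glmQLFTest, group as the only term, two-sided), with Benjamini-Hochberg adjustment over 14927 genes; 8442 genes had an unadjusted p under 0.05. The script was tested on simulated counts with known changes in a small set of genes. It called 0 of 50 genes at a true log2 fold change of 1 in size and 0 of 50 at 2. At 4 it called 22.9% of 48 genes, at 6 54% of 50, and 1 of 14546 unchanged genes. With so few changed genes the adjusted threshold was stricter than here, so these shares do not carry over. A gene not called may still differ. Where a group had 0 counts, a bound was taken from a floor of 3 counts over the group, and with 1 to 3 counts the ratio has an exact 95% interval. DESeq2 1.42.0 was an alternative, with other scalings, filters, samples, a replicate block, thinning to 6000000 counts, columns summed, and each library left out.

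The members and the 30 lists (469 different genes, 468 of them in the table) were chosen with earlier results of these data known. Genes were named by rule: Acta2 and Aldh1l1, the 15 largest changes in each direction with a mean of at least 50 CPM, no overlap and no predicted symbol, and in each list up to 3 called members by mean CPM in each direction and those called against the list's majority. Other called members, such as Tagln, Lmod1, Ednra, Adora2a and Grin1, were named after their values were seen, and some genes that the rule names are not reported here. Promoters and coordinates came from RefSeq (GRCm38.p6) and the GENCODE annotation of GRCm38. The libraries' total counts are deep for aSMCs and shallow for astrocytes, so astrocyte values are the less precise.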

Additional observations from a re-analysis of the deposited data

Results flagged for a closer look

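For each of the 211 genes named above, the highest and the lowest of the 6 aSMC libraries were tested for a gap to the nearest other library of more than 0.625 of the whole range, a limit that about 1 in 20 groups passes by chance. The highest library stood apart in this way for 36 genes and the lowest for 1, and many of these genes were close to 0 in the other libraries, so that a few reads made the gap. In aSMC replicate 1 these were Acsbg1 at 0.262 CPM (median of the 6 0.0405), Aldh1l1 at 8.33 CPM (median of the 6 2.11), Dcx at 0.314 CPM (median of the 6 0.0649), Kcnj8 at 11.6 CPM (median of the 6 0.405), Lamc1 at 221 CPM (median of the 6 57.5), Pla2g4a at 5.61 CPM (median of the 6 1.05), Ptprc at 38 CPM (median of the 6 0.719), Rarres2 at 38.4 CPM (median of the 6 7.49) and Trpc1 at 3.04 CPM (median of the 6 0.0938). In aSMC replicate 2 these were Cnp at 16 CPM (median of the 6 4.01), Edn1 at 85.5 CPM (median of the 6 39.3), Ptgs2 at 12.3 CPM (median of the 6 0.781) and Slc7a10 at 0.057 CPM (median of the 6 0). In aSMC replicate 3 these were Bcan at 0.406 CPM (median of the 6 0.0547), Col1a2 at 195 CPM (median of the 6 109), Dcn at 19.2 CPM (median of the 6 1.15), Hey1 at 6.69 CPM (median of the 6 0.576), Itgb8 at 0.203 CPM (median of the 6 0.0547), Mbp at 0.446 CPM (median of the 6 0.159), Pde9a at 0.446 CPM (median of the 6 0.109) and Rgs10 at 0.203 CPM (median of the 6 0).

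In aSMC replicate 4 these were Adora2b at 0.258 CPM (median of the 6 0), Aqp4 at 3.57 CPM (median of the 6 0), Cdr1 at 0.0368 CPM (median of the 6 0), Cfap206 at 0.0368 CPM (median of the 6 0), Kcnj16 at 2.21 CPM (median of the 6 0.0832) and Kcnj2 at 3.76 CPM (median of the 6 0.538). In aSMC replicate 5 these were Chrdl1 at 0.0809 CPM (median of the 6 0), Foxj1 at 1.05 CPM (median of the 6 0.059), Gpr17 at 6.99 CPM (median of the 6 0.0809), Mlc1 at 1.05 CPM (median of the 6 0.0387), Mt3 at 0.606 CPM (median of the 6 0.0385) and Uty at 534 CPM (median of the 6 335). In aSMC replicate 6 these were Efcab1 at 0.0728 CPM (median of the 6 0), Mdk at 0.946 CPM (median of the 6 0) and Sox2 at 1.97 CPM (median of the 6 0.112). Grin1 had its stray value at the low end, 0.111 CPM in replicate 4 against a median of 0.3 CPM.

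For 4 genes the aSMCs of the other reporter line were called in the opposite direction against the same 3 astrocyte libraries, and the Ai47 and Ai14 aSMCs differed from each other at an adjusted p under 0.05 in the same edgeR fit. Cd44 had a log2 fold change of -4.73 in Ai14 aSMCs and 2.35 in Ai47 aSMCs, where its 6 counts lay within 5% of each other. Gja1 had a log2 fold change of -5.15 in Ai14 aSMCs and 2.28 in Ai47 aSMCs. Ptges3 had a log2 fold change of -2.78 in Ai14 aSMCs and 1.32 in Ai47 aSMCs. Sox9 had a log2 fold change of -3.57 in Ai14 aSMCs and 1.45 in Ai47 aSMCs. Both contrasts share the astrocyte libraries, and reporter, fluorophore, library size and sequencing round cannot be told apart between the lines.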

How the results depend on the processing

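The 3893 genes higher in aSMCs and 3555 higher in astrocytes stayed within 1.5 times under DESeq2 size factors, no filter, a filter at 1 CPM, DESeq2 and a fold threshold. They moved to 1830 and 6351 on library totals, the share of calls that were higher in aSMCs falling from 52.3% to 22.4%, to 2447 and 462 with the 6 aSMC columns as 1 library, and to 2026 and 531 with the Ai14 aSMCs in their place, which left 7 astrocyte identity genes called. Fitted on the 9 libraries alone, 3216 and 2198 genes passed, 59.4% of calls being higher in aSMCs, and thinning the aSMC columns gave 2919 and 4507, or 39.3%. Same-numbered libraries did not deviate together, and the numbers name samples only; with the replicate number as a block 3154 and 1695 genes were called, and Aldh1l1 had a log2 fold change of 1.38 (adjusted p = 0.72). Leaving out 1 library gave 3996 to 4383 genes higher in aSMCs, 2795 to 3172 higher in astrocytes, 14 to 16 contractile genes, 13 astrocyte identity genes each time, and log2 fold changes of 5.61 to 6.23 for Acta2 and -2.97 to 4.02 for Aldh1l1. The 3893 and 3555 genes of the main fit lie outside the first 2 of these ranges. In each of these fits the median of all log2 fold changes rose, by 0.335 without aSMC replicate 1 to 1.17 without astrocyte replicate 3. Aldh1l1 passed the threshold on library totals (-4.33) and with thinned columns (-3.50). Among the named genes called in at least 1 of the 2 fits compared, the log2 fold change turned on library totals for Cald1 -1.04, Cd44 -0.070, Cst3 -0.023, Dag1 -2.26, Dusp1 -1.97, Jun -1.62, Ptges3 -0.83, Sox9 -0.75, Sparc -0.72 and Synpo2 -1.91. With the Ai14 aSMCs it turned for Abcg1 -2.96, Atp1b2 0.44, Atp2a2 1.83, Cd44 -4.73, Cst3 -0.13, Dmd 1.93, Gja1 -5.15, Gria2 1.06, Mbp 1.56, P2ry12 1.20, P2ry13 2.23, Prkaca -0.48, Prkg1 1.81, Ptges3 -2.78, Sox9 -3.57 and Trpc1 1.45. Leaving out 1 library turned it, with the lowest and the highest value over the 9 omissions, in the absence of astrocyte replicate 1 for Dner (-3.81 to 2.41) and Rgs10 (-7.09 to 2.70), of replicate 2 for Lamc1 (-0.83 to 2.81), and of replicate 3 for Bcan (-4.94 to 1.43), Cldn11 (-4.13 to 3.61), Hmox1 (-5.52 to 2.10), P2ry13 (-4.83 to 2.36) and Pde9a (-5.50 to 0.060). Summing the 6 columns ended 51 of the calls on the 211 named genes. The low depth of the astrocyte libraries limits what can be said of genes at 0 counts there. The causes of these changes were not tested.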
